A study of Mus musculus with 76 samples.

Results

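The step from maternal to biparental exposure at the higher of 2 doses was examined in the dorsal forebrain of mouse embryos, in the 18 of 76 libraries whose labels place them in Both_10Cyp or Maternal_10Cyp. In Both_10Cyp (10 libraries) the mother and the father had been given α-cypermethrin, and in Maternal_10Cyp (8 libraries) the mother had been given it and the father vehicle, so that an exposed mother is common to all 18 and only the father's treatment differs. No library of unexposed parents enters this comparison. The mice were C57Bl/6J, and the parents were treated for 28 days (7 days, then 3 cycles of 2 days off and 5 days on) and paired immediately afterwards. The dose is labelled 10 without a unit, and the same step was available at a dose labelled 0.3 (12 libraries of Both_0.3Cyp and 12 of Maternal_0.3Cyp). Total RNA was sequenced from tissue taken at embryonic day 16. No litter is labelled, so littermates may be counted separately, and the p-values measure only the spread between these libraries.

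α-Cypermethrin is a pyrethroid insecticide, a class known for holding voltage-gated sodium channels open. At this age the dorsal forebrain holds the developing cortex: radial glia divide at the ventricle, give rise to intermediate progenitors and then to neurons, and begin to turn to glia, while the neurons already made extend axons and start to express ion channels, receptors and synaptic adhesion proteins. Genes of division and genes of neuronal maturation are therefore the 2 poles along which such tissue is usually read. Per the title of the series, its questions concern autism spectrum disorder and vulnerability to stress, and genes of the synapse, of chromatin and of the stress axis were listed for that reason.

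The tissue label was checked on genes of cortical neurons. Neurod6, a transcription factor of cortical excitatory neurons, had 455, 545 and 597 CPM (lowest, median and highest library; CPM is a count scaled to a common normalised library total) in Both_10Cyp, against 499, 602 and 670 CPM in Maternal_10Cyp. All 18 libraries therefore carry it at a high level. The summed level of 25 markers of interneurons and ventral forebrain was 1367 to 1672 CPM in Both_10Cyp and 1460 to 1773 CPM in Maternal_10Cyp, so these markers were present in both groups.

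The libraries differed in ways other than the father's exposure. Totals were 26.1 ± 3.74 M counts in Both_10Cyp and 19.3 ± 1.24 M in Maternal_10Cyp (SD, n = 10 and 8; 21.2 to 34 M and 17.7 to 21.9 M; 2-sided exact permutation test over 43758 arrangements, p = 0.00016), and 8 of 10 Both_10Cyp libraries lay above all of Maternal_10Cyp. At 1 CPM a gene had 22 counts in the median library. Batch 1 and batch 2, as labelled, held 4 and 6 libraries of Both_10Cyp and 4 and 4 of Maternal_10Cyp. A low ratio of the mitochondrial mRNAs mt-Atp6 to mt-Nd4l (more than 3 median absolute deviations below the median of the 76 libraries) marked 7 of 10 Both_10Cyp libraries, 1 of 4 in batch 1 and 6 of 6 in batch 2, against 3 of 8 Maternal_10Cyp libraries, 3 of 4 in batch 1 and 0 of 4 in batch 2.

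Replicates 7 and 8 of Both_10Cyp stood apart. Their embryonic globin mRNAs (Hbb-y and Hba-x, made by the first red blood cells) summed to 11.9 and 11.2 CPM, where the other Both_10Cyp libraries had 0 to 1.03 CPM and the Maternal_10Cyp libraries 0.76 to 1.69 CPM. On the first principal component, which held 24.1% of the variance, they lay at 33.3 and 27.6, the other Both_10Cyp libraries between -30.5 and 2.5, and Maternal_10Cyp between -7.8 and 18.8. They were also the highest of the 18 libraries in the summed genes of mitosis, DNA replication and intermediate progenitors and the lowest in those of metabotropic glutamate receptors, GABA receptors and sodium channels. Leaving them out therefore enlarges differences between the groups in those genes. Main results are given with all 18 libraries and with the 16 that remain, and many list counts and gene values with the 16 only. Genes said to have risen or fallen passed the test in the 16, as none passed with all 18. What sets the 2 libraries apart was not tested.

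With all 18 libraries no gene passed the test. Of 13870 genes tested by edgeR's quasi-likelihood test with batch as covariate, 0 (0%) reached a Benjamini-Hochberg adjusted p under 0.05, and the lowest adjusted p was 0.0691. At an unadjusted p under 0.05 there were 2703 genes (19.5%), 1320 higher in Both_10Cyp (9.52%) and 1383 lower (9.97%). Of the 2703, 2676 had the same sign in both batches, as did 8476 of all 13870 genes tested. A p from both batches together favours such genes, so the agreement is no separate support. With the same libraries and the same covariate DESeq2 called 283 genes. The limma fit called 1858, with quality weights that give the libraries unequal influence. The differences were small: the median absolute log2 fold change was 0.09 over all genes, and 145 genes combined an unadjusted p under 0.05 with a log2 fold change of at least 0.5 in size. The levels of all 18 libraries did not overlap between the groups for 19 genes, 2 higher (0.0144%) and 17 lower (0.123%).

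Without replicates 7 and 8 the same test called 3064 of 13802 genes (22.2%), 1556 higher (11.3%) and 1508 lower (10.9%) in Both_10Cyp. All 3064 had the same sign in both batches, their median absolute log2 fold change was 0.24, and 264 reached 0.5. These genes were picked by a p from both batches together, which favours the same sign, so the agreement is no separate support. Taken batch by batch in this fit, 390 genes (2.83%) passed within batch 1 and 714 (5.17%) within batch 2. The count ran from 2154 to 3418 when a further library was left out. Leaving out all libraries of low mt-Atp6 to mt-Nd4l ratio leaves 3 against 5. Those 3 are all in batch 1, where replicate 1 is the only Maternal_10Cyp library left. With batch as covariate that fit rests on this library, so no count is read from it.

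The gene of lowest p was Ino80b (ENSMUSG00000030034; mm10 chromosome 6, 83121765 to 83125431, minus strand), which encodes a subunit of the INO80 chromatin remodelling complex. It had 29.5, 32.1 and 33.9 CPM in Both_10Cyp, against 35.8, 37.5 and 40.2 CPM in Maternal_10Cyp. Every Both_10Cyp library lay below every Maternal_10Cyp library. The log2 fold change was -0.24 ± 0.038 (SE, n = 10 against 8; edgeR quasi-likelihood adjusted p = 0.0691), -0.24 in each batch, and -0.25 ± 0.040 without replicates 7 and 8 (edgeR adjusted p = 0.00211).

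Paip2 (ENSMUSG00000037058), an inhibitor of translation that binds the poly(A)-binding protein, had 112, 125 and 141 CPM in Both_10Cyp and 141, 151 and 162 CPM in Maternal_10Cyp. The groups met only at their edges, with 9 of 10 Both_10Cyp libraries under all of Maternal_10Cyp. Its log2 fold change was -0.25 ± 0.044 (edgeR adjusted p = 0.0978), and -0.29 ± 0.040 in the 16 libraries (edgeR adjusted p = 0.00211).

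Lifr (ENSMUSG00000054263; chromosome 15, 7090614 to 7197489, plus strand), the receptor of leukemia inhibitory factor, a cytokine known for driving cortical precursors towards astrocytes, had 8.87, 11.2 and 15.8 CPM in Both_10Cyp and 5.36, 8.26 and 9.26 CPM in Maternal_10Cyp. Replicate 2 of Both_10Cyp was the one library of that group within the Maternal_10Cyp range. The log2 fold change was 0.53 ± 0.096 (edgeR adjusted p = 0.104), 0.54 in batch 1 and 0.52 in batch 2, and replicates 7 and 8, with 10.3 and 10.8 CPM, lay with the rest of their group. In the 16 libraries it was 0.58 ± 0.095 (edgeR adjusted p = 0.00211).

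Zbtb34 (ENSMUSG00000068966; chromosome 2, 33406108 to 33431324, minus strand), a zinc finger protein, had 35.8, 41.0 and 45.1 CPM in Both_10Cyp, against 24.9, 32.6 and 34 CPM in Maternal_10Cyp. It is 1 of the 2 genes whose Both_10Cyp libraries all lay above all of Maternal_10Cyp. The log2 fold change was 0.35 ± 0.064 (edgeR adjusted p = 0.104). Mmp16 (ENSMUSG00000028226; chromosome 4, 17852893 to 18119145, plus strand), a membrane-bound matrix metalloproteinase, had 23.7, 28.3 and 31.7 CPM in Both_10Cyp and 14.7, 20.1 and 24.7 CPM in Maternal_10Cyp, with 7 of 10 libraries above that range and a log2 fold change of 0.46 ± 0.086 (edgeR adjusted p = 0.105). Without replicates 7 and 8 the values were 0.38 for Zbtb34 and 0.51 for Mmp16 (edgeR adjusted p = 0.00211 for each).

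**Figure D1:**
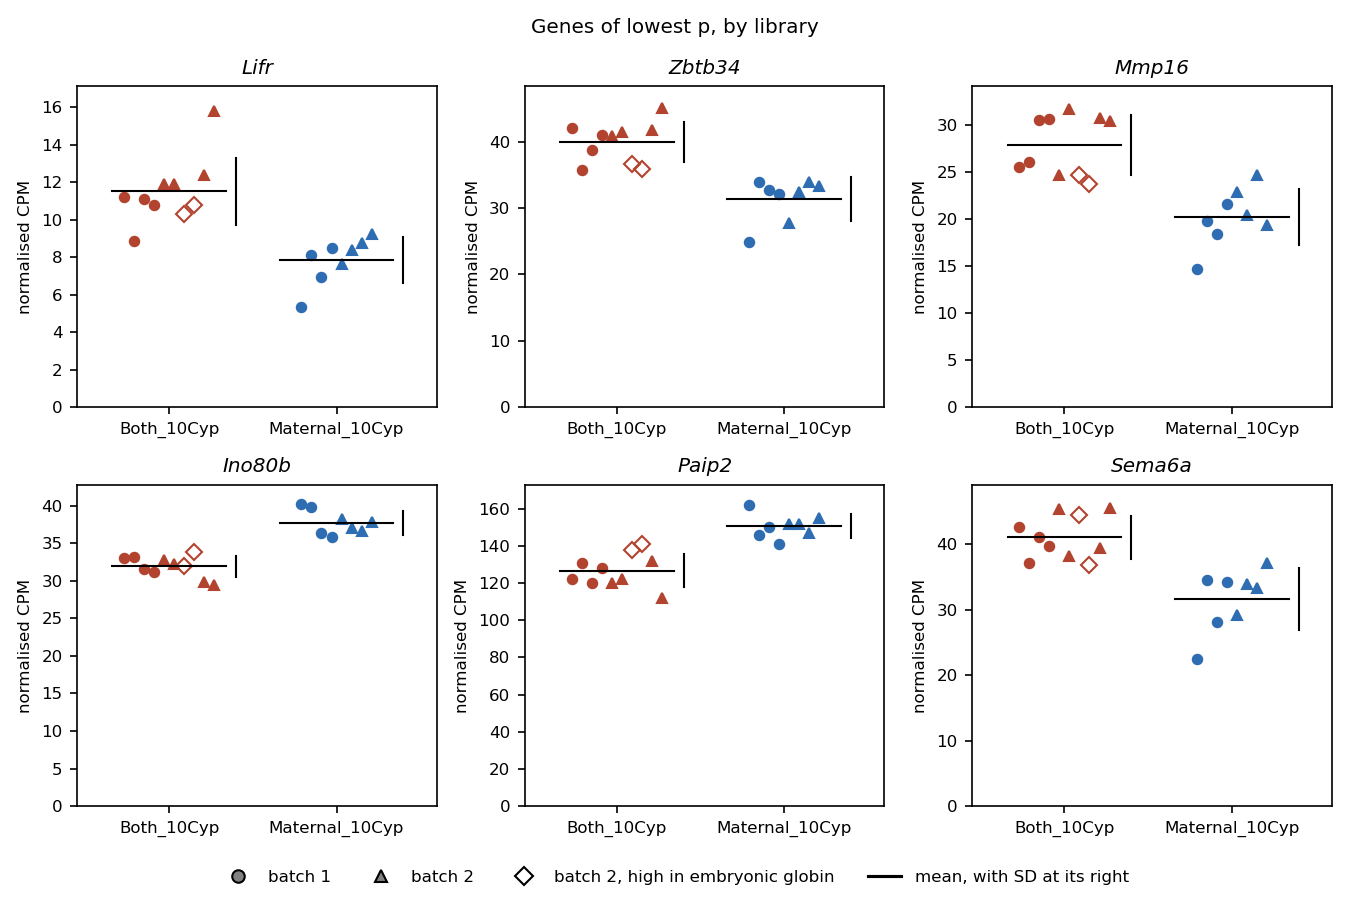
Normalised CPM (y axis, linear from 0) of 6 genes in each library of Both_10Cyp (left, red, 10 libraries) and Maternal_10Cyp (right, blue, 8 libraries). Circles are batch 1, triangles batch 2 and open diamonds replicates 7 and 8 of Both_10Cyp; lines show the mean with its SD. Ino80b (29.5 to 33.9 against 35.8 to 40.2 CPM) and Zbtb34 (35.8 to 45.1 against 24.9 to 34 CPM) do not overlap between the groups.

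Genes of cell division were lower in Both_10Cyp than in Maternal_10Cyp outside replicates 7 and 8. The 44 tested genes of mitosis and kinetochore summed to 1269, 1510 and 1964 CPM (lowest, median and highest) in the 8 other Both_10Cyp libraries, against 1692, 1985 and 2259 CPM in Maternal_10Cyp. In 6 of these 8 libraries the sum lay below all of Maternal_10Cyp, while replicates 7 and 8 had 2670 and 2556 CPM, above all of it. With 18 libraries 42 of 44 genes had a negative log2 fold change, the median was -0.23 (0.0065 over all genes) and 8 were lower at an unadjusted p under 0.05. Without replicates 7 and 8 the median was -0.41 and 36 of 44 fell (81.8%, where 10.9% of all genes did), and at least 31 of them did so with any further library left out. As in any bulk tissue, fewer dividing cells and less of these mRNAs per cell cannot be told apart here.

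Hmgb2, a chromatin protein abundant in proliferating cells, had 85.5, 94.6 and 129 CPM in the 8 libraries of Both_10Cyp, against 126, 149 and 192 CPM in Maternal_10Cyp. Replicates 7 and 8 had 179 and 184 CPM. The log2 fold change was -0.39 ± 0.15 with 18 libraries (edgeR adjusted p = 0.198) and -0.59 ± 0.098 with 16 (edgeR adjusted p = 0.00222), and 7 of the 8 libraries lay below all of Maternal_10Cyp. Cks2, a partner of cyclin-dependent kinases, had 12.8, 15.6 and 20.2 CPM in the 8 libraries and 26.2 and 31.6 CPM in replicates 7 and 8, against 20.7, 23.7 and 25.7 CPM in Maternal_10Cyp. All 8 were below the Maternal_10Cyp range and both of the others above it. The share of all genes that separate so in the 16 libraries is not reported here, so no such separation, here or below, is read as unusual.

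Cenpm, a protein of the inner kinetochore, had 9.06 to 12.2 CPM in the 8 libraries, all below the 12.3 to 15.9 CPM of Maternal_10Cyp. Replicates 7 and 8, with 15.2 and 15.5 CPM, lay inside that range. Its log2 fold change was -0.45 ± 0.070 in the 16 libraries (edgeR adjusted p = 0.00211). Bub3, of the spindle checkpoint, differed less (-0.17 ± 0.040, edgeR adjusted p = 0.00734). Cenpk, another kinetochore protein, which was chosen for mention after its values were seen, had 2.18 to 4.10 CPM in the 8 libraries and 4.83 and 6.00 CPM in replicates 7 and 8, against 4.29 to 5.07 CPM in Maternal_10Cyp.

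The promoters of these 4 genes of mitosis are shown because their list moved together and because many promoters of this kind carry a known pair of elements, the CHR (TTTGAA, bound by the complex that switches late cell cycle genes) and the CCAAT box (CCAAT, bound by NF-Y). The windows run from 250 bases before to 50 after the first-listed start of the gene, from RefSeq on GRCm38.p6: Hmgb2 at chr8:57511593-57511892 on the plus strand, Bub3 at chr7:131560120-131560419 on the plus strand, Cks2 at chr13:51644982-51645281 on the plus strand and Cenpm at chr15:82244287-82244586 on the minus strand. They are written 5′ to 3′ on the strand of the gene, and capitals mark either motif on either strand (TTTGAA, which reads TTCAAA on the other strand, and CCAAT, which reads ATTGG on the other strand).
Hmgb2: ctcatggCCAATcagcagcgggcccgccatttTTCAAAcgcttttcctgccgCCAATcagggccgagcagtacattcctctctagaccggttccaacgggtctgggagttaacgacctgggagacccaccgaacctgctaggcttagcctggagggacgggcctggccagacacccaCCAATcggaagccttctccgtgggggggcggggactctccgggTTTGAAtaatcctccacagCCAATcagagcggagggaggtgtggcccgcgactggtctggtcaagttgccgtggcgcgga
Bub3: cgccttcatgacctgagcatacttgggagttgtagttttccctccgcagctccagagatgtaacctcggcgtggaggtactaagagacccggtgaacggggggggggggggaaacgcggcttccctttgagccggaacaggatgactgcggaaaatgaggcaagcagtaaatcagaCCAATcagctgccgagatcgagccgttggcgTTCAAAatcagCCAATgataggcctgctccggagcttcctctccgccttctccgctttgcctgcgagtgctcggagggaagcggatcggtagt
Cks2: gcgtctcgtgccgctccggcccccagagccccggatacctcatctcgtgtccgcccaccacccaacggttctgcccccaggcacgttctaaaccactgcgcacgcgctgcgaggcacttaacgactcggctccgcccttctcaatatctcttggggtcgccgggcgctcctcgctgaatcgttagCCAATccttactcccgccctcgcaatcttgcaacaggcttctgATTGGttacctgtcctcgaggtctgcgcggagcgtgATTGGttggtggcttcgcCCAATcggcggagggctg
Cenpm: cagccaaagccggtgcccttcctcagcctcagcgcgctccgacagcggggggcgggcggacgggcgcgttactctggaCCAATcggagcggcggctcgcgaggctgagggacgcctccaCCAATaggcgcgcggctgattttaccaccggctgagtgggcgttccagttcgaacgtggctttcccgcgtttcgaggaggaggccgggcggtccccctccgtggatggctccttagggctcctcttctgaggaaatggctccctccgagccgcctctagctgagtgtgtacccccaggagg
Hmgb2 and Bub3 hold both motifs in this window, with no overlap between them, and Cks2 and Cenpm hold the CCAAT box only.

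Of the 44 tested genes of mitosis, 37 matched a promoter, and 25 of these held a CHR (67.6%), where 1233 of 10837 promoters of tested genes did (11.4%). The CCAAT box stood in 31 of 37 (83.8%) against 4194 of 10837 (38.7%). For 36 matched genes of DNA replication the shares were 11.1% and 61.1%. The presence of a CHR did not sort the values within the list: the median log2 fold change in the 16 libraries was -0.39 for the 25 genes with it and -0.44 for the 12 without it. A match is a description of the letters only.

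The 47 tested genes of DNA replication and S phase gave the same picture. Their sum was 1525, 1650 and 1976 CPM in the 8 libraries and 2564 and 2387 CPM in replicates 7 and 8 of Both_10Cyp, against 1854, 2012 and 2355 CPM in Maternal_10Cyp. With 18 libraries the median log2 fold change was -0.16, and with 16 it was -0.28, where 34 of 47 fell (72.3%). Dut, which clears dUTP from the nucleotide pool, had 52.5, 53.9 and 65.5 CPM in the 8 libraries, against 62.5, 71.8 and 82.5 CPM in Maternal_10Cyp (-0.34 ± 0.058 with 16 libraries, edgeR adjusted p = 0.00211). Rfc2, of the clamp loader, had -0.19 ± 0.037, Rpa3, of the single-strand binding complex, -0.34 ± 0.071, and Gins4, of the replicative helicase, -0.27 ± 0.054, with 7 of 8 libraries below all of Maternal_10Cyp in each. With 18 libraries these 4 genes had log2 fold changes from -0.26 to -0.15 (edgeR adjusted p from 0.15 to 0.166).

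Of 19 replication-dependent histone genes tested in the 16 libraries 4 fell (21.1%, where 10.9% of all genes did), and 7 without replicate 2 of Both_10Cyp. Among the 4 were Hist3h2a (-0.24 ± 0.049) and Hist3h2ba (-0.27 ± 0.051). With 18 libraries the median of 20 such genes was -0.16 and 0 were called. Histone genes are near-identical copies, so the counting of reads between copies is uncertain. Their mRNAs, as a class, lack poly(A) tails.

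A list of intermediate progenitors and proneural factors was lower as well, though it also holds Neurod6, Rbfox3 and Elavl4, which neurons express. Of its 18 genes, 12 fell in the 16 libraries (66.7%, where 10.9% of all genes did), Neurod6 among them. The median log2 fold change was -0.28, against -0.17 and 0 called with 18. The sum of the list was 1837, 1966 and 2191 CPM in the 8 libraries and 2722 and 2618 CPM in replicates 7 and 8. In Maternal_10Cyp it was 2154, 2266 and 2565 CPM, and Neurod6 alone had a median of 602 CPM there. Sstr2, a somatostatin receptor of intermediate progenitors, had 44, 49.2 and 53.1 CPM in the 8 libraries, all below the 54.0, 62.3 and 71.7 CPM of Maternal_10Cyp (-0.34 ± 0.049, edgeR adjusted p = 0.00211), while replicates 7 and 8 had 78.4 and 70.6 CPM. Mfng, a glycosyltransferase that modifies Notch receptors, had 27.9, 33.6 and 46.8 CPM in the 8 libraries, against 43.2, 47.3 and 56.7 CPM in Maternal_10Cyp (-0.51 ± 0.095). Hes6, which promotes neuronal differentiation, had -0.24 ± 0.054 in that fit.

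The proneural transcription factors Neurog1, Neurog2 and Nhlh1, named here after their values were seen, lay far apart between replicates 7 and 8 and the other Both_10Cyp libraries. Neurog1 had 0.339, 1.22 and 2.30 CPM in the 8 libraries and 8.09 and 6.58 CPM in replicates 7 and 8 of Both_10Cyp, against 2.28, 3.04 and 4.32 CPM in Maternal_10Cyp. Neurog2 had 51.4, 79.0 and 102 CPM in the 8 libraries and 195 and 175 CPM in replicates 7 and 8, against 103, 118 and 125 CPM in Maternal_10Cyp. With 16 libraries the log2 fold changes were -1.34 ± 0.33 for Neurog1, -0.58 ± 0.14 for Neurog2 and -0.59 ± 0.16 for Nhlh1 (edgeR adjusted p from 0.01 to 0.0139). With 18 they were -0.52, -0.27 and -0.16, the first and the last with a positive sign in batch 2.

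Radial glia did not move as one. Of 23 marker genes 10 fell (43.5%) and 3 rose (13%) in the 16 libraries, where 10.9% of all genes fell and 11.3% rose. The median was -0.21 (-0.12 and 0 called with 18). Tnc and Ptprz1, an extracellular matrix protein and a receptor phosphatase that mark outer radial glia in human cortex, and Slc1a3, a glutamate transporter shared with astrocytes, were the 3 that rose. Tnc had 85.4, 115 and 160 CPM in the 8 libraries and 69.9 and 65.3 CPM in replicates 7 and 8, against 65.7, 78.1 and 92.0 CPM in Maternal_10Cyp (0.54 ± 0.12, edgeR adjusted p = 0.0061). Hes1, a Notch target that keeps progenitors undifferentiated, had 8.41 to 15.6 CPM in the 8 libraries, against 14.1 to 20.9 CPM in Maternal_10Cyp (-0.51 ± 0.12, edgeR adjusted p = 0.00745). Fabp7, a fatty acid binding protein, did not pass in either fit (-0.15 ± 0.074 in the 16 libraries).

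Of 11 genes that mark young rather than late progenitors 4 fell in the 16 libraries (36.4%, where 10.9% of all genes did), and 3 without replicate 1 of Maternal_10Cyp. Among the 4 were Hmga1 (-0.27 ± 0.045), a chromatin protein, and Igf2bp2 (-0.33 ± 0.087), an RNA-binding protein. With 18 libraries 0 were called and the median was -0.11, with -0.32 in batch 1 and 0.09 in batch 2. Sox3, a progenitor transcription factor named after its values were seen, had 29.1, 40.7 and 56.5 CPM in the 8 libraries and 110 and 93.4 CPM in replicates 7 and 8, against 53.9, 56.9 and 75.5 CPM in Maternal_10Cyp. Of 26 genes of the Notch pathway 6 fell (23.1%, where 10.9% of all genes did) and 1 rose (3.85%, where 11.3% did), with a median of -0.007.

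**Figure D2:**
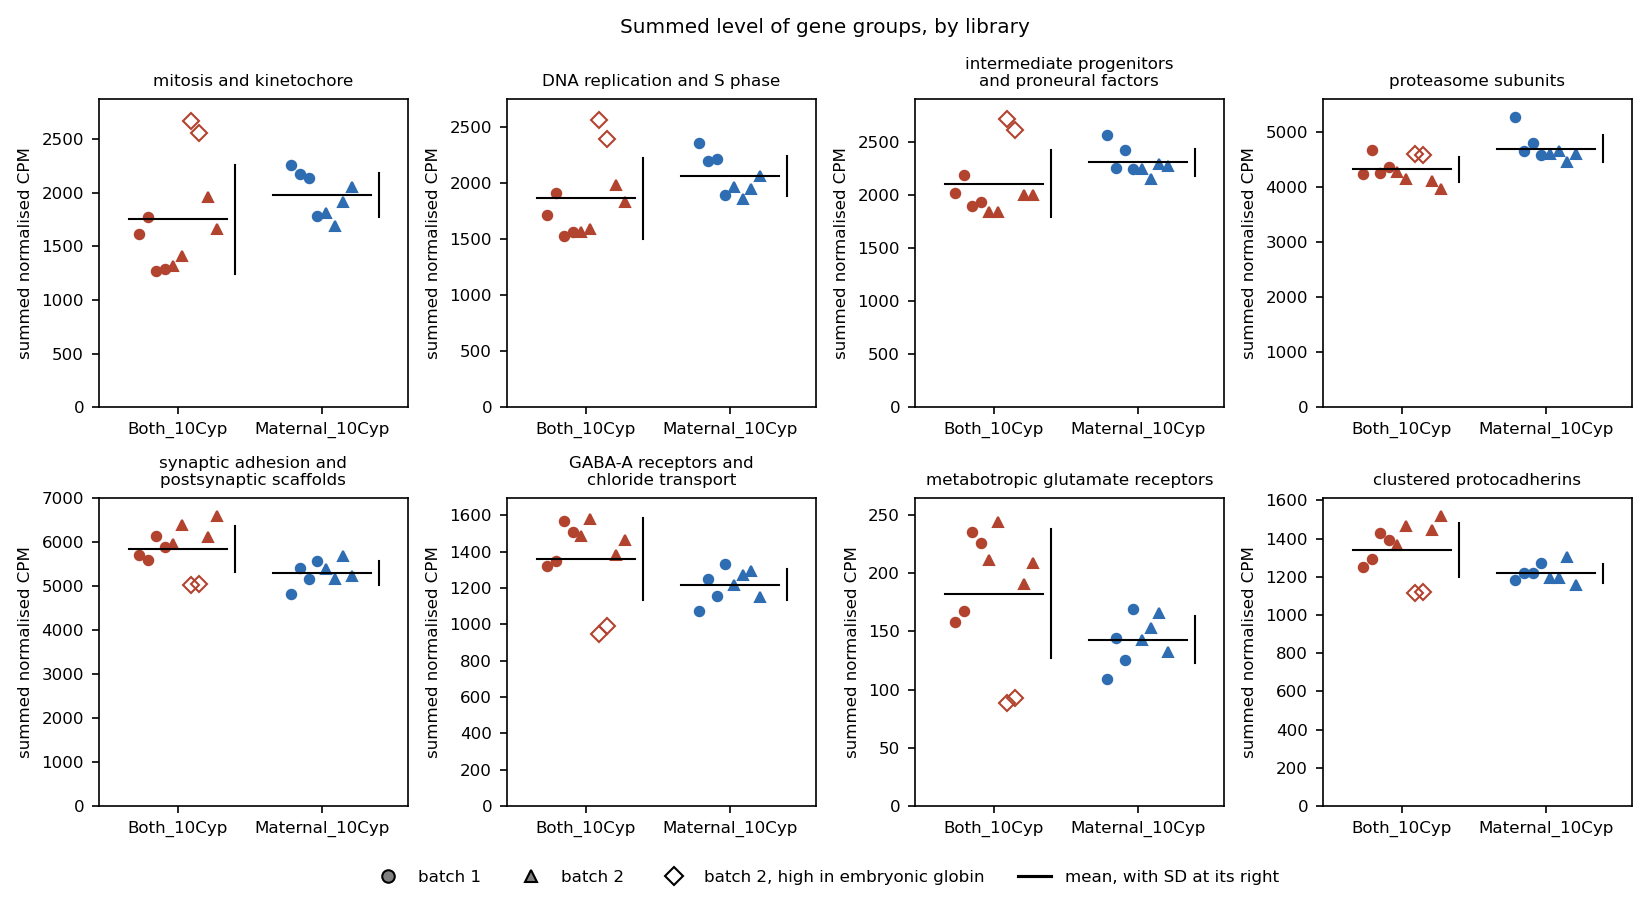
Summed normalised CPM (y axis, linear from 0) of 8 gene groups in each library of Both_10Cyp (left, red) and Maternal_10Cyp (right, blue), with circles for batch 1, triangles for batch 2, open diamonds for replicates 7 and 8 of Both_10Cyp, and lines for the mean with its SD. For mitosis, DNA replication, and intermediate progenitors and proneural factors the diamonds are the highest of the 18 libraries (2670 and 2556 CPM for mitosis). The other Both_10Cyp libraries lie mostly below Maternal_10Cyp there. In the synaptic groups the diamonds lie at the low end and the others mostly above.

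Genes of the synapse were higher in Both_10Cyp. Of 49 genes of synaptic adhesion and postsynaptic scaffolds, 45 had a positive log2 fold change with 18 libraries, with a median of 0.19, and 28 were higher at an unadjusted p under 0.05 (57.1%, where 9.52% of all genes were), though 0 passed the adjusted test. Without replicates 7 and 8 the median was 0.28 and 32 of 49 rose (65.3%, where 11.3% of all genes did). Their sum was 5603, 6041 and 6589 CPM in the 8 libraries, 5035 and 5044 CPM in replicates 7 and 8, and 4830, 5311 and 5694 CPM in Maternal_10Cyp. Nlgn3, a neuroligin with variants linked to autism, had 101, 111 and 142 CPM in Both_10Cyp, against 83.9, 91.6 and 107 CPM in Maternal_10Cyp, and replicates 7 and 8, with 107 and 111 CPM, did not stand apart. Its log2 fold change was 0.27 ± 0.059 (edgeR adjusted p = 0.139), and 0.29 ± 0.060 with 16 libraries (edgeR adjusted p = 0.00426).

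Frmpd4, a scaffold of dendritic spines, had 4.09, 6.69 and 8.34 CPM in the 8 libraries and 3.35 and 3.96 CPM in replicates 7 and 8, against 3.38, 3.74 and 4.32 CPM in Maternal_10Cyp. It rose by 0.78 ± 0.14 in the 16 libraries (edgeR adjusted p = 0.00278), with 7 of 8 above the Maternal_10Cyp range. Shank2, a master scaffold of excitatory synapses, had 68.8, 79.6 and 89.4 CPM in the 8 libraries, against 49.5, 62.5 and 69.5 CPM in Maternal_10Cyp (0.37 ± 0.068). Adgrl3, a latrophilin, had 80.5, 96.3 and 111 CPM in the 8 libraries and 58.5, 65.7 and 86.9 CPM in Maternal_10Cyp (0.43 ± 0.081). Replicates 7 and 8 had 57.7 and 60.0 CPM of Shank2 and 63.4 and 66.1 CPM of Adgrl3, inside the Maternal_10Cyp range.

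Receptors of glutamate followed. Of 14 genes of NMDA and kainate receptors 9 rose in the 16 libraries (64.3%, where 11.3% of all genes did), with a median of 0.33 (0.22 with 18). Grin2b, the NMDA receptor subunit that prevails before birth, had 119, 184 and 231 CPM in Both_10Cyp, against 81.9, 115 and 176 CPM in Maternal_10Cyp, with a log2 fold change of 0.52 ± 0.16 with 18 libraries (edgeR adjusted p = 0.153) and 0.64 ± 0.15 with 16 (edgeR adjusted p = 0.0104). Grin2a, the subunit that prevails later, had 1.54, 2.53 and 4.08 CPM in the 8 libraries and 0.843, 1.72 and 2.13 CPM in Maternal_10Cyp (0.79 ± 0.23, edgeR adjusted p = 0.0203). Grik2, a kainate receptor subunit, had 0.30 ± 0.062 and Grin3a 0.58 ± 0.13 in that fit.

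All 7 metabotropic glutamate receptors tested had a positive log2 fold change in both fits. In the 16 libraries 5 rose (71.4%, where 11.3% of all genes did), with a median of 0.58 (0.38 with 18). Grm2, which damps transmitter release, had 18.5, 25.5 and 31.1 CPM in the 8 libraries and 8.83 and 8.81 CPM in replicates 7 and 8, against 13.8, 16.2 and 19.8 CPM in Maternal_10Cyp. The 10 Both_10Cyp libraries thus lay on both sides of the Maternal_10Cyp range, 7 above it and 2 below. Grm3 (0.74 ± 0.16) and Grm5 (0.59 ± 0.12) were ordered in the same way. Grm3 had 4.28 and 5.85 CPM in replicates 7 and 8, against 10.3 to 24.5 CPM in the others and 6.70 to 13.1 CPM in Maternal_10Cyp. For Grm7 (0.63 ± 0.14) replicates 7 and 8, with 6.51 and 5.46 CPM, lay inside the Maternal_10Cyp range of 5.25 to 10.6 CPM.

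Of 17 AMPA receptor genes and auxiliary subunits 11 rose (64.7%) and 1 fell (5.88%) in the 16 libraries, where 11.3% of all genes rose and 10.9% fell. Without replicate 1 of Maternal_10Cyp 7 rose. The median was 0.23, and 0.16 with 18 libraries, where 0 were called. Shisa6, an auxiliary subunit, had 19.4, 24.2 and 30.1 CPM in the 8 libraries, against 12.8, 17.2 and 22.3 CPM in Maternal_10Cyp (0.48 ± 0.10, edgeR adjusted p = 0.00462), and Cacng8 had 0.30 ± 0.066. The one that fell was Cacng7, from the same family of auxiliary subunits (-0.12 ± 0.044, edgeR adjusted p = 0.048).

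Genes of inhibition showed the same ordering. The 21 genes of GABA receptors and chloride transport all had a positive log2 fold change with 18 libraries (median 0.16). With 16 libraries 14 of these genes rose (66.7%, where 11.3% of all genes did), with a median of 0.31. Their sum was 1321, 1475 and 1578 CPM in the 8 libraries and 949 and 990 CPM in replicates 7 and 8, against 1072, 1233 and 1335 CPM in Maternal_10Cyp. Gabrb2, a receptor subunit, had 34.4, 42.9 and 52.8 CPM in the 8 libraries, against 18.6, 32.4 and 36.2 CPM in Maternal_10Cyp (0.53 ± 0.12). Gabbr2, listed with them as a subunit of the metabotropic GABA-B receptor, had 53.6, 67.7 and 79.8 CPM in the 8 libraries and 32.2 and 30.6 CPM in replicates 7 and 8, against 36.6, 44.8 and 56.4 CPM in Maternal_10Cyp (0.52 ± 0.098).

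Voltage-gated channels set the excitability of the young neurons, and the sodium channels are the known target of pyrethroids. Of 14 sodium channel genes 7 rose in the 16 libraries (50%, where 11.3% of all genes did), with a median of 0.30 (0.21 with 18, all 14 positive). Scn2a, the main sodium channel of embryonic axons, had 57.1, 68.4 and 79.9 CPM in the 8 libraries and 27.0 and 33.1 CPM in replicates 7 and 8, against 36.2, 47.7 and 60.0 CPM in Maternal_10Cyp (0.52 ± 0.086, edgeR adjusted p = 0.00211). Scn3a, prominent before birth, had 0.34 ± 0.069 and Scn8a 0.32 ± 0.064. With 18 libraries the 3 genes had 0.35, 0.25 and 0.23 (edgeR adjusted p from 0.182 to 0.277).

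Of 15 calcium channel genes 10 rose in the 16 libraries (66.7%, where 11.3% of all genes did), with a median of 0.36 (0.28 with 18). Cacna1a, of the P/Q-type channel that triggers transmitter release, had 37.7, 45.7 and 50.1 CPM in the 8 libraries, all above the 29.2, 35.3 and 37.5 CPM of Maternal_10Cyp (0.40 ± 0.059), while replicates 7 and 8 had 30.9 and 30.2 CPM. Cacna1g, a T-type channel, had 34.5, 38.0 and 50.03 CPM over all 10 libraries, against 25.0, 34.2 and 36.5 CPM in Maternal_10Cyp (0.32 ± 0.086 with 18 libraries, edgeR adjusted p = 0.142). Of 55 potassium channel genes 20 rose (36.4%) and 1 fell (1.82%) in the 16 libraries, where 11.3% of all genes rose and 10.9% fell. Their median was 0.27, and 0.19 with 18, where 0 were called. Kcnn2, a calcium-activated channel, was the one that fell (-0.31 ± 0.071).

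The machinery of release was higher too, with 19 of 32 presynaptic genes called in the 16 libraries (59.4%, where 11.3% of all genes rose). The median was 0.22, and 0.13 with 18. Pclo and Bsn, the large scaffolds of the active zone, had log2 fold changes of 0.67 ± 0.18 and 0.33 ± 0.10 there. In both genes 3 of 10 Both_10Cyp libraries lay above all of Maternal_10Cyp and all 10 above its median.

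The clustered protocadherins, which give each neuron a cell surface identity, had a median log2 fold change of 0.26 with 18 libraries over 56 tested genes, 23 of them higher at an unadjusted p under 0.05 (41.1%). With 16 libraries 29 rose (51.8%, where 11.3% of all genes did) and the median was 0.33. Pcdhga1 had 11.9, 14.4 and 16.0 CPM in the 8 libraries and 10.6 and 9.54 CPM in replicates 7 and 8, against 7.41, 9.33 and 12.5 CPM in Maternal_10Cyp (0.55 ± 0.10, edgeR adjusted p = 0.00274). Pcdha11 had 0.69 ± 0.16 and Pcdhga11 0.36 ± 0.082. The mRNAs of each cluster share their last exons, so how the estimated counts divide reads between the members is uncertain.

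**Figure D3:**
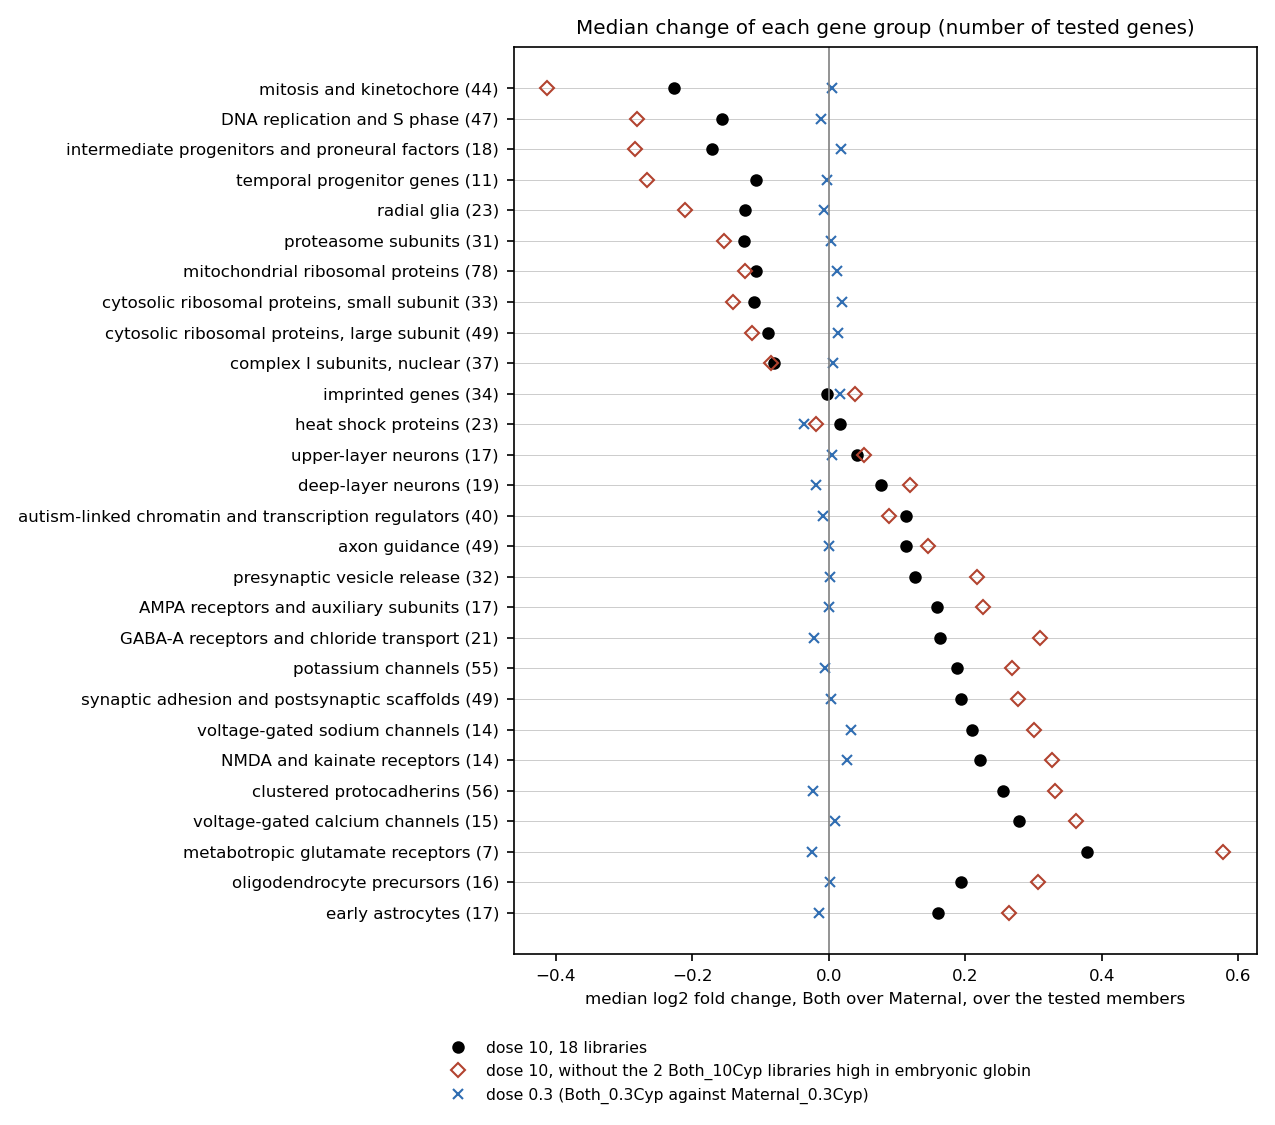
Median log2 fold change (x axis) of 28 gene groups, with the number of tested genes beside each name. Filled circles are Both_10Cyp over Maternal_10Cyp with 18 libraries, open diamonds without replicates 7 and 8 of Both_10Cyp, and crosses Both_0.3Cyp over Maternal_0.3Cyp. The diamonds run from -0.41 for mitosis to 0.58 for metabotropic glutamate receptors, the circles between them and 0 for most groups, and the crosses from -0.04 to 0.03.

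Identity genes of the cortical layers had small medians, though more rose than fell in the 16 libraries. Of 17 upper-layer genes 4 rose (23.5%) and 1 fell (5.88%), where 11.3% of all genes rose and 10.9% fell. Of 19 deep-layer genes 5 rose (26.3%), 2 without replicate 1 of Maternal_10Cyp, and 1 fell (5.26%). The medians were 0.05 and 0.12, and 0.04 and 0.08 with 18 libraries, where 0 were called. With offsets for length and GC content 3 upper-layer genes rose and 5 fell, and 3 deep-layer genes rose and 3 fell. Mef2c, a transcription factor of maturing neurons linked to autism, had 240, 298 and 384 CPM in the 8 libraries, against 181, 228 and 261 CPM in Maternal_10Cyp (0.47 ± 0.11). Bcl11b, of subcerebral neurons, did not pass in either fit (0.13 ± 0.069 with 16 libraries), and had -0.01 in batch 1 and 0.29 in batch 2 with 18. Neurod6, used above as a check of the tissue, was lower in the 16 libraries (-0.16 ± 0.053, edgeR adjusted p = 0.0369). Of 11 Cajal-Retzius genes 2 rose (18.2%), and 1 without replicate 1 of Maternal_10Cyp. The 2 were Reln, the secreted guide of neuronal layering (0.49 ± 0.17), and Ndnf (0.62 ± 0.13).

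In the list of 49 axon guidance genes 11 rose, 7 without replicate 3 of Both_10Cyp, and 3 fell in the 16 libraries (22.4% and 6.12%, where 11.3% of all genes rose and 10.9% fell). With offsets for length and GC content 9 rose and 8 fell. Sema6a, a transmembrane semaphorin, had 36.9, 40.5 and 45.6 CPM in Both_10Cyp, against 22.5, 33.6 and 37.2 CPM in Maternal_10Cyp, and replicates 7 and 8 did not stand apart. Its log2 fold change was 0.37 ± 0.076 (edgeR adjusted p = 0.132) and 0.39 ± 0.078 with 16 libraries (edgeR adjusted p = 0.00394). Epha7, an ephrin receptor, and Robo1, a receptor of Slit proteins, had 0.31 ± 0.062 and 0.26 ± 0.060 in that fit.

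Glial genes were higher. Of 16 genes of oligodendrocyte precursors 6 rose in the 16 libraries (37.5%, where 11.3% of all genes did), with a median of 0.31 (0.19 with 18). Cspg4, the NG2 proteoglycan, also found on pericytes, had 6.85, 8.74 and 15.5 CPM in the 8 libraries, against 3.85, 5.83 and 6.91 CPM in Maternal_10Cyp (0.74 ± 0.14). Pdgfra, the receptor that drives these precursors, had 0.56 ± 0.11, Olig1 0.50 ± 0.11 and Olig2 0.26 ± 0.078. Replicates 7 and 8 had 25.8 and 27.4 CPM of Olig1, below the 40.2 to 48.3 CPM of Maternal_10Cyp, where the other 8 libraries had 43.6 to 78.8 CPM.

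Of 17 genes of early astrocytes 6 rose (35.3%), 2 without replicate 1 of Maternal_10Cyp, and 1 fell (5.88%), where 11.3% of all genes rose and 10.9% fell. The median was 0.26, and 0.16 with 18. Aqp4, a water channel, had 1.89, 3.40 and 5.51 CPM in the 8 libraries and 1.02 and 1.42 CPM in replicates 7 and 8, against 1.13, 2.03 and 2.91 CPM in Maternal_10Cyp (0.83 ± 0.25, edgeR adjusted p = 0.0263). Gfap, a filament protein of astrocytes, had 1.61, 3.65 and 8.99 CPM in the 8 libraries and 1.52, 2.27 and 3.36 CPM in Maternal_10Cyp, and was called with 16 libraries (0.96 ± 0.32, edgeR adjusted p = 0.0434). Slc1a2, the main astrocyte glutamate transporter, was not (0.38 ± 0.14, edgeR adjusted p = 0.0582).

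Among all called genes of the 16 libraries, the largest rises with a mean of at least 1 CPM included the following, picked after their values were seen. Notum, a secreted enzyme that inactivates Wnt proteins, had 0.763, 1.46 and 3.56 CPM in the 8 libraries and 0.279 and 0.462 CPM in replicates 7 and 8, against 0.536, 0.742 and 0.857 CPM in Maternal_10Cyp (1.251 ± 0.25). Trpc5, a calcium-permeable channel of growth cones, had 3.55, 5.44 and 8.03 CPM in the 8 libraries, against 2.68, 3.12 and 3.59 CPM in Maternal_10Cyp (0.87 ± 0.14). Met, a receptor tyrosine kinase of cortical projection neurons with variants linked to autism, had 11.4, 20.3 and 24.8 CPM in the 8 libraries, against 6.86, 10.3 and 14.8 CPM in Maternal_10Cyp (0.85 ± 0.19). Oprm1, the mu opioid receptor, had 0.86 ± 0.21, Ptk2b, a calcium-responsive kinase, 0.90 ± 0.20, and Fndc1 and Nwd2 1.04 ± 0.17 and 0.95 ± 0.18.

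Among the largest falls was Gcg, the proglucagon gene. It had 0.956, 1.497 and 1.73 CPM in Both_10Cyp, all 10 below the 1.84, 2.12 and 2.55 CPM of Maternal_10Cyp, and replicates 7 and 8, with 1.67 and 1.73 CPM, were no exception (-0.54 ± 0.13 with 18 libraries, edgeR adjusted p = 0.139). Mtfr2, a mitochondrial fission factor of dividing cells, had -0.59 ± 0.13 in the 16 libraries.

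The proteasome, which degrades ubiquitin-tagged proteins, was lower in Both_10Cyp with or without replicates 7 and 8. With 18 libraries 30 of 31 subunit genes had a negative log2 fold change, the median was -0.12 and 26 were lower at an unadjusted p under 0.05 (83.9%, where 9.97% of all genes were). With 16 libraries the median was -0.15 and 27 of 31 fell (87.1%). The sum was 3960, 4239 and 4666 CPM in the 8 libraries and 4588 and 4581 CPM in replicates 7 and 8, against 4447, 4620 and 5262 CPM in Maternal_10Cyp. Psma5, of the core ring, had 77.4, 92.9 and 96.4 CPM in Both_10Cyp, against 96.9, 102 and 110 CPM in Maternal_10Cyp, and Psmd14, the deubiquitinase of the lid, had 104 to 120.8 CPM in Both_10Cyp and 121.4 to 144 CPM in Maternal_10Cyp. For both genes all 10 Both_10Cyp libraries lay below all of Maternal_10Cyp, with log2 fold changes of -0.18 ± 0.044 and -0.15 ± 0.038 (edgeR adjusted p = 0.139 and 0.142). Psma3 and Psma6 had -0.16 ± 0.040 and -0.17 ± 0.041.

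Genes of ribosomes and of the respiratory chain were lower by a smaller amount. With 16 libraries 16 of 49 genes of the large and 15 of 33 of the small cytosolic ribosomal subunit fell (medians -0.11 and -0.14), beside 24 of 78 of the mitochondrial ribosome (-0.12), 7 of 37 nuclear genes of complex I (-0.09) and 7 of 41 of complexes II to V (-0.10). The shares that fell were 32.7%, 45.5% and 30.8% for the 3 ribosomal lists and 18.9% and 17.1% for the 2 respiratory ones, where 10.9% of all genes did. With 18 libraries 0 were called and the medians were -0.11 to -0.08. Ndufc2, of complex I, had 62.0, 79.2 and 82.9 CPM in Both_10Cyp, against 83.7, 88.1 and 101 CPM in Maternal_10Cyp, with no overlap. Atp5b, of the ATP synthase, had 1032, 1066 and 1191 CPM in Both_10Cyp, against 1129, 1167 and 1248 CPM in Maternal_10Cyp (-0.12 ± 0.031, edgeR adjusted p = 0.143).

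Maternal_10Cyp replicate 1 carried much of the ribosomal and respiratory counts. It was the highest library in each of these sums, with 26890 CPM for the large subunit where the other Maternal_10Cyp libraries stayed below it, and without it 7 genes of the large subunit, 9 of the small, 14 of the mitochondrial ribosome, 2 of complex I and 2 of complexes II to V were called with the remaining 15 libraries. For the proteasome 23 of 31 were called without it. Without replicate 5 of Both_10Cyp, 11 genes of complex I and 18 of complexes II to V were called.

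Transcript length moved with the comparison. Divided into 4 classes of equal size by transcript length, the tested genes had median log2 fold changes of -0.07, -0.02, 0.03 and 0.10 with 18 libraries, at median lengths of 992, 1564, 2249 and 3521 bases, and of -0.08, -0.02, 0.04 and 0.12 with 16. In the 16 libraries 77 genes of the shortest class were called higher and 750 lower, against 826 higher and 83 lower in the longest. With offsets for length and GC content in each library, 2547 genes were called in place of 3064 and their split was 961 higher and 1586 lower. What gives this slope was not tested.

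The groups differed in how much was left under these offsets. In the 16 libraries, mitosis kept a median of -0.38 with 33 of 44 called, replication -0.24 with 32 of 47, and intermediate progenitors and proneural factors -0.31 with 15 of 18. Synaptic adhesion had 0.18 with 21 higher and 1 lower, metabotropic glutamate receptors 0.49 with 4 of 7, GABA receptors 0.23 with 11 of 21, and sodium channels 0.22 with 7 of 14. The protocadherins had 0.20 with 7 higher and 1 lower, in place of 29. NMDA and kainate receptors had 0.21 with 5 of 14 called, in place of 9, and calcium channels 0.21 with 6 of 15, in place of 10. AMPA receptors had 0.09 with 7 higher and 2 lower of 17, potassium channels 0.16 with 13 higher and 2 lower of 55, and presynaptic genes 0.17 with 14 higher and 2 lower of 32. Oligodendrocyte precursors had 0.26 with 4 higher and 1 lower, and early astrocytes 0.30 with 7 higher and 1 lower. For the proteasome the median was -0.08 and 14 of 31 were called, and for the large ribosomal subunit -0.01 and 4 of 49. For the small subunit they were -0.05 and 2 lower of 33, with 1 higher, and for the mitochondrial ribosome -0.07 and 18 of 78. Complex I turned to 0.02 with 3 lower, complexes II to V had -0.003 with 0 called, deep-layer neurons turned to -0.02 with 3 higher and 3 lower, and upper-layer neurons had a median of 0 with 3 higher and 5 lower.

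**Figure D4:**
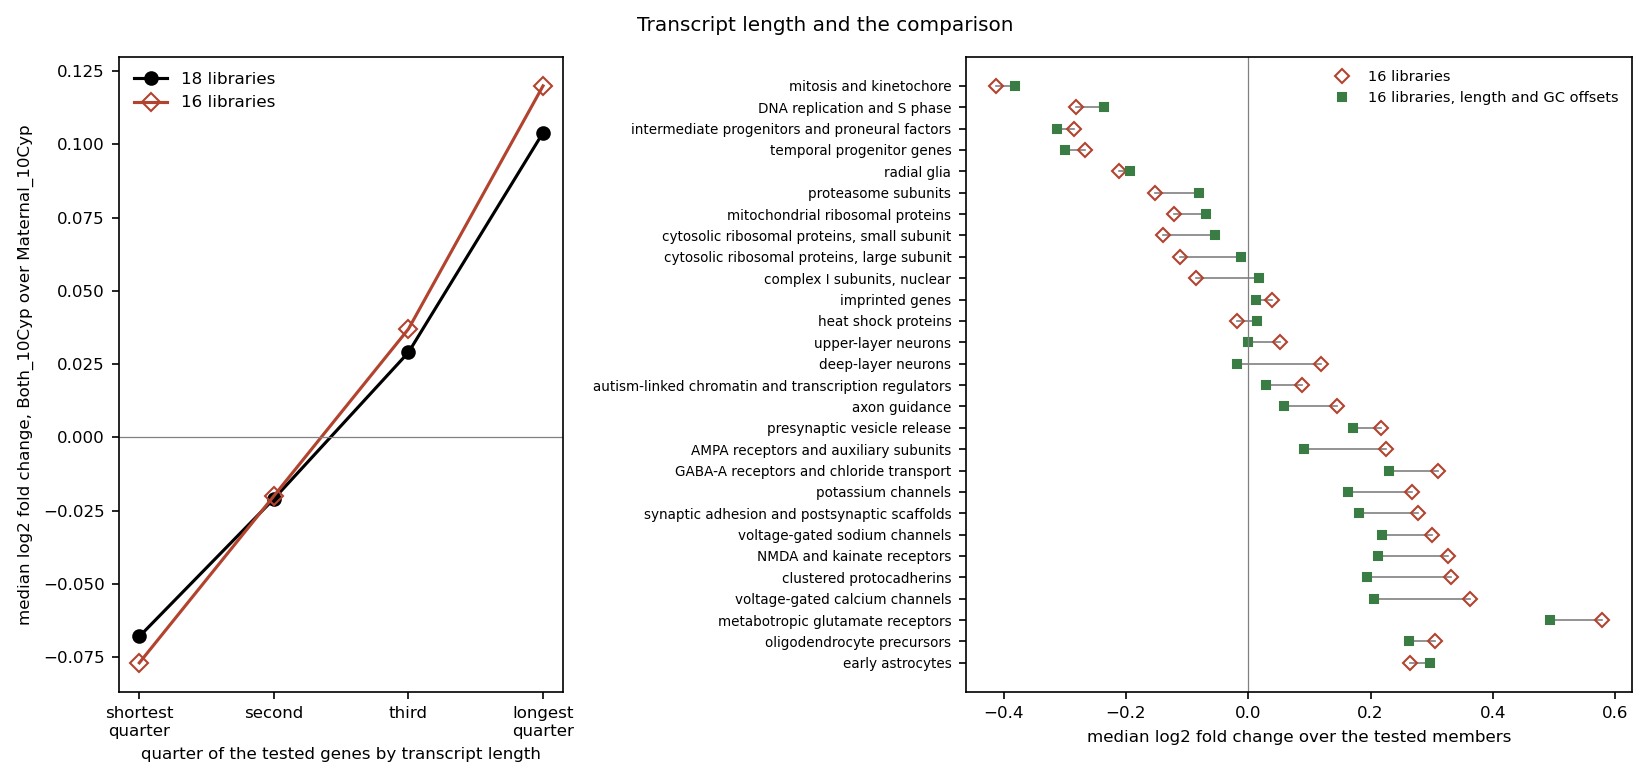
Left, median log2 fold change (y axis) of the tested genes in 4 classes of transcript length (x axis), for Both_10Cyp over Maternal_10Cyp with 18 libraries (filled circles) and 16 (open diamonds). Right, median log2 fold change (x axis) of 28 gene groups in the 16 libraries without (diamonds) and with (squares) offsets for length and GC content. The left lines climb from -0.07 to 0.10 and from -0.08 to 0.12; on the right mitosis stays at -0.38 while the large ribosomal subunit goes to -0.01.

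Regulators of chromatin and transcription linked to autism were higher by a median of 0.11 with 18 libraries, and 14 of 40 were higher at an unadjusted p under 0.05 (35%). Here the 16 libraries gave a smaller median, 0.09, with 8 called (20%, where 11.3% of all genes rose). The count was 3 without replicate 3 of Both_10Cyp and 13 without its replicate 5. With offsets for length and GC content the median was 0.03, with 3 higher and 2 lower. The medians were 0.022 in batch 1 and 0.198 in batch 2 with 18 libraries, and 0.025 and 0.175 with 16. Ncoa1, a coactivator of nuclear receptors, had 99.3, 125 and 143 CPM in Both_10Cyp, against 86.5, 97.4 and 108 CPM in Maternal_10Cyp (0.30 ± 0.072, edgeR adjusted p = 0.139; 0.36 ± 0.062 with 16 libraries). Med13, of the Mediator kinase module, had 0.26 ± 0.070, Asxl3 0.27 ± 0.088 and Tcf20 0.13 ± 0.044 with 18 libraries, all with an edgeR adjusted p of 0.146 to 0.158.

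In the stress axis 7 of 20 genes rose (35%) and 3 fell (15%) with 16 libraries, where 11.3% of all genes rose and 10.9% fell. With the offsets for length and GC content 3 rose and 2 fell. Further, 3 rose without replicate 1 of Maternal_10Cyp and 1 fell without replicate 3 of Both_10Cyp. Nr3c1, the glucocorticoid receptor, had 10.9, 12.8 and 14.9 CPM in Both_10Cyp, against 10.1, 11.1 and 12 CPM in Maternal_10Cyp (0.20 ± 0.065, edgeR adjusted p = 0.158; 0.24 ± 0.065 with 16 libraries, edgeR adjusted p = 0.0154). Dusp1, a phosphatase induced by glucocorticoids and by activity, was among those that fell (-0.24 ± 0.067). Immediate early genes went both ways, with 8 of 24 higher (33.3%) and 5 lower (20.8%), and 6 of each with the offsets: Nr4a3 (0.44 ± 0.10) and Egr3 (0.46 ± 0.11), transcription factors induced by activity, rose, and Jund (-0.23 ± 0.066) fell.

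Of 39 genes of antioxidant defence and handling of foreign compounds 7 fell (17.9%), 3 without replicate 1 of Maternal_10Cyp, and 2 rose (5.13%), 1 without it, in the 16 libraries. Of all genes 10.9% fell and 11.3% rose. With the offsets 4 of the 39 fell and 4 rose. Prdx2, a peroxiredoxin, had 701, 731 and 876 CPM in the 8 libraries, against 813, 875 and 1023 CPM in Maternal_10Cyp (-0.24 ± 0.045), Sod1, superoxide dismutase, had -0.13 ± 0.044 and Gstm5, a glutathione transferase, -0.18 ± 0.044. Ephx1, an epoxide hydrolase of xenobiotics, rose (0.47 ± 0.12), with 7 of 8 libraries above all of Maternal_10Cyp. Of 24 genes of cholesterol synthesis 7 rose (29.2%, where 11.3% of all genes did), 2 without replicate 3 of Both_10Cyp. Their median was 0.10, and 0.05 with 18 libraries, where 0 were called. Of 34 imprinted genes 2 rose (6 without replicate 5 of Both_10Cyp and 1 without replicate 1 of Maternal_10Cyp) and 3 fell. Of 16 genes of the DNA methylation machinery 3 fell (18.8%, where 10.9% of all genes did), among them Mbd3 (-0.20 ± 0.047) and Tdg (-0.17 ± 0.035). The median of each of the last 2 lists was within 0.04 of 0 in both fits. Of 23 heat shock genes 1 rose and 2 fell, the falls being 0 without replicate 3 of Both_10Cyp, and of 26 genes of hypoxia and glycolysis 3 rose (5 without replicate 2 of Both_10Cyp) and 3 fell. In these last 2 lists and among imprinted genes the shares called, 4.35% to 11.5% in each direction, were near or below those of all genes.

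Markers of cells next to the cortex were followed beside these groups. All 16 tested genes of choroid plexus, the tissue that makes cerebrospinal fluid, had a positive log2 fold change (median 0.38 with 18 libraries), 7 at an unadjusted p under 0.05, and 2, Cldn1 and Htr2c, rose with 16 (12.5%, near the 11.3% of all genes; 1 with the offsets for length and GC content, 4 without replicate 3 of Both_10Cyp and 1 without replicate 1 of Maternal_10Cyp). Their sum was 490 to 1223 CPM in Both_10Cyp and 463 to 1030 CPM in Maternal_10Cyp. Ttr, the defining secreted protein of that tissue, averaged 653 ± 178 CPM in Both_10Cyp and 517 ± 155 CPM in Maternal_10Cyp (SD, n = 10 and 8; log2 fold change 0.38 ± 0.16). Cldn1, a tight junction protein, had 5.38, 7.02 and 11.1 CPM in Both_10Cyp, against 3.81, 4.37 and 6.80 CPM in Maternal_10Cyp (0.63 ± 0.14, edgeR adjusted p = 0.139). Htr2c, a serotonin receptor abundant in that tissue, had 0.51 ± 0.17, Aqp1 0.44 ± 0.16 and Folr1 0.45 ± 0.16.

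Markers of meninges and fibroblasts had a median of 0.52 over 26 genes, 1.14 in batch 1 and 0.18 in batch 2, with 1 called in the 16 libraries, Pdgfra, which is shared with oligodendrocyte precursors. With 18 libraries 24 of 26 genes had a positive log2 fold change. Their sum was 2669 to 3825 CPM in Both_10Cyp and 2795 to 3678 CPM in Maternal_10Cyp, most of it from Nnat, an imprinted gene (2232 to 3002 CPM in Both_10Cyp and 2460 to 3309 CPM in Maternal_10Cyp; log2 fold change -0.13 ± 0.055). Without Nnat the sum was 317, 499 and 1126 CPM in Both_10Cyp and 309, 350 and 774 CPM in Maternal_10Cyp. Of 23 endothelial genes 3 rose (13%, near the 11.3% of all genes; 5 without replicate 2 of Both_10Cyp), among them Flt1 (0.46 ± 0.075) and Kdr (0.38 ± 0.11), receptors of vascular endothelial growth factor. Of 22 genes of microglia and macrophages 0 passed in either fit, of 16 of pericytes 1 rose, which was Cspg4, and of 25 of interneurons and ventral forebrain 5 rose (20%; 3 without replicate 1 of Maternal_10Cyp; with the offsets 2 rose and 2 fell). The part of these cells in the other results was not tested.

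Of 13 mitochondrially encoded mRNAs 0 passed with 18 or 16 libraries. mt-Atp6, which defines the ratio given above, had 491, 548 and 1643 CPM in Both_10Cyp, against 493, 1434 and 1730 CPM in Maternal_10Cyp, with a log2 fold change of 0.52 in batch 1 and -1.48 in batch 2, where the classes are split the opposite way between the groups. With the class as a term the 16 libraries gave 2510 called genes and the 18 gave 0.

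The batches and sexes gave the following. With 18 libraries the median of mitosis was -0.52 in batch 1 and 0.02 in batch 2, and that of metabotropic glutamate receptors 0.58 and 0.21; the 2 set-apart libraries are both in batch 2. Without them the values were -0.51 and -0.29, and 0.58 and 0.57. Proteasome medians were -0.14 and -0.12 with 18 libraries and -0.13 and -0.17 with 16. The test of a different effect in the 2 batches called 0 of 13870 genes (0%; 1112 at an unadjusted p under 0.05, 8.02%), and that of a different effect in female and male embryos called 0 (0%; 135, 0.973%).

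**Figure D5:**
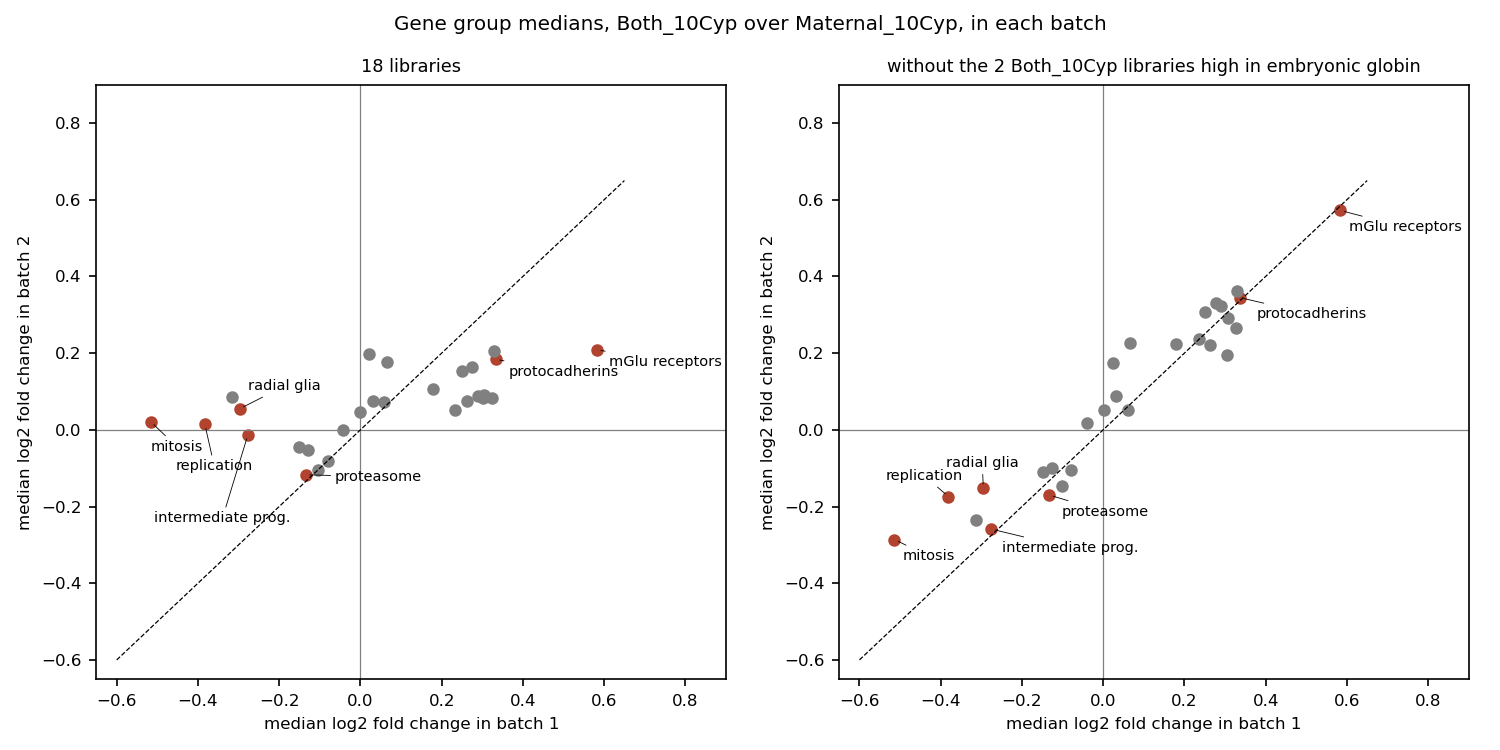
Median log2 fold change of 28 gene groups, Both_10Cyp over Maternal_10Cyp, in batch 1 (x axis) and batch 2 (y axis), with all 18 libraries (left) and without replicates 7 and 8 of Both_10Cyp (right); the dashed line marks equal values, and red points are named. On the left mitosis lies at -0.52 and 0.02, and on the right at -0.51 and -0.29.

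At the dose labelled 0.3 the same step gave no called gene. Both_0.3Cyp against Maternal_0.3Cyp (12 against 12 libraries, none of them high in embryonic globin) gave 0 of 14133 genes (0%; 519 at an unadjusted p under 0.05, 3.67%), and the list medians were 0.005 for mitosis, 0.004 for the proteasome and 0.003 for synaptic adhesion. Medians farther from 0 were those of meninges and fibroblasts (-0.36), choroid plexus (-0.23), diencephalon (0.22) and Cajal-Retzius cells (-0.11). The difference between the steps at the 2 doses was tested directly in one fit of the 42 libraries. It called 1 of 14133 genes (0.00708%; 2414 at an unadjusted p under 0.05, 17.1%), Lifr, and 0 in a fit of all 76 libraries with sex as a further term.

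Lifr had a log2 fold change of -0.20 at dose 0.3 and a difference between doses of 0.73 ± 0.13 (edgeR adjusted p = 0.0104). Without replicates 7 and 8 of Both_10Cyp that difference was 0.76 ± 0.12 (edgeR adjusted p = 0.000672), and 1907 of 14117 genes (13.5%) were called, 697 with a higher (4.94%) and 1210 with a lower difference (8.57%). Among them were 34 of 44 genes of mitosis, 24 of 47 of replication, 11 of 18 of intermediate progenitors and proneural factors and 22 of 31 of the proteasome, all lower, and 21 of 49 of synaptic adhesion, 16 of 56 protocadherins and 15 of 55 potassium channels, higher. Ino80b (-0.35 ± 0.066), Zbtb34 (0.46 ± 0.093) and Mmp16 (0.61 ± 0.12) passed there too, with edgeR adjusted p of 0.00184 to 0.0025. The choroid plexus list had 0 of 16 genes called in that difference.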

How the data were processed

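Gene-level expected counts of 14823 genes in 76 libraries of embryonic dorsal forebrain were used as deposited; the values are whole numbers, and every gene has at least 10 counts in 3 or more libraries. Per the submitters' processing notes, Trim Galore 0.5.0 and Salmon 1.10.1 were used with the mouse build mm10; such estimated counts divide reads among similar transcripts, which makes near-identical genes uncertain. The total counts of the 18 libraries and what a gene of low level had are given with the results. Whether reads were counted by strand is not given in the sources used here.

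Groups, batch and sex came from the labels. In R 4.3.3, edgeR 4.0.16 removed 953 genes by filterByExpr, computed TMM factors and fitted batch and group to the 18 libraries (residual df 15, robust quasi-likelihood, 2-sided), with calls made where the p, adjusted over 13870 genes by Benjamini-Hochberg, was under 0.05. The scripts were tested on simulated data. Alternatives used DESeq2 1.42.0, limma 3.58.1 with voom quality weights, sva 3.50.0, other covariates and subsets of libraries. Embryonic globin was high, or the mt-Atp6 to mt-Nd4l ratio low, at more than 3 median absolute deviations from the median of all 76 libraries on the log2 scale.

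The 51 gene lists (1419 genes) and the comparison itself were chosen with earlier results of these data known, so a list's direction is not independent evidence, and lists are described by counts and medians beside those of all genes. The rule for naming genes took the 5 with the smallest p and then, from each list, at most 4 with the smallest p, called or not; some genes so chosen are not reported here. The largest rises and falls among called genes of at least 1 CPM with the same sign in both batches were to be named as well; with 18 libraries no gene was called, so those named come from the fit of 16 libraries and were chosen after their values were seen. Symbols were matched for 14810 genes. No 2 libraries held the same values. Replicate numbers are shared between the groups only as names: same-numbered libraries correlated between -0.11 and 0.22 in their deviations from the group means, and 0 of 8 correlated best with its own number.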

Additional observations from a re-analysis of the deposited data

Results flagged for a closer look

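Of 318 groups of 8 or 10 values tested for a library far from the others, 17 had one; chance gives about 1 in 20. Replicate 1 of Maternal_10Cyp stood apart in most of them. It was far above the other 7 libraries of its group in the summed large ribosomal subunit (26900 CPM, next 23200 CPM), the small subunit (19400 CPM, next 16500 CPM), the proteasome (5260 CPM, next 4790 CPM) and the share of counts from ribosomal protein genes (4.46%, next 3.93%). The same library was far above its group in Rps7 (963 CPM), Psmd14 (144 CPM), Ndufc2 (101 CPM), Ndufs3 (90.5 CPM) and Gstm5 (67.3 CPM), and far below it in Grm3 (6.7 CPM, next 9.87 CPM).

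Of the other Maternal_10Cyp libraries, replicate 2 was far above the rest in the summed markers of interneurons and ventral forebrain (1770 CPM, next 1540 CPM) and replicate 3 in Folr1 (11.9 CPM, next 7.52 CPM). In Both_10Cyp, replicate 10 was far above the rest in Nlgn3 (142 CPM, next 119 CPM) and Pcdhgb4 (19 CPM, next 14.1 CPM), and replicate 2 in Atp5b (1190 CPM, next 1100 CPM). Replicate 6 was far below the rest in Gcg (0.956 CPM, next 1.29 CPM), and replicate 7 in Oprm1 (0.511 CPM, next 1.06 CPM).

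The step from maternal to biparental exposure differed between the doses for Lifr, with a difference of 0.73 on the log2 scale between dose 10 and dose 0.3 (edgeR adjusted p = 0.0104; higher at dose 10).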

How the results depend on the processing

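With all 18 libraries the count of called genes was 0 also with DESeq2 size factors, without a filter, with sex as a term, with all 76 libraries, in batch 1 alone, with counts thinned to the lowest total, with the globin ratio as a term, with offsets for length and GC content, with the mt ratio class and with a replicate block (1350 at an unadjusted p under 0.05). It was 283 by the DESeq2 Wald test, 1858 by limma with quality weights, 451 with 2 surrogate variables and 1 without the batch term. It was 1 in batch 2 alone (mt-Atp6), 34 in a fit of the 4 groups of exposed mothers and 3064 without replicates 7 and 8 of Both_10Cyp. It ran from 0 to 7 with each library left out, 7 without replicate 7 of Both_10Cyp, 4 without replicate 8 and 1 without replicate 5. The cause was not tested. Without the libraries of low mt ratio, batch 1 keeps only replicate 1 of Maternal_10Cyp, so no count is read from that fit.

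The 3064 of the 16 libraries became 1589 without those of low mt ratio, 2547 with offsets for length and GC content (961 higher and 1586 lower), 2259 with a replicate block and 2154 to 3418 with each library left out. Other settings gave 2510 to 3787. The dose difference called 1 gene, 9 with DESeq2 size factors, 0 with all 76 libraries and 1907 without replicates 7 and 8. The replicate numbers do not pair the libraries.

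Of 127 named genes, 9 changed sign in 11 cases. Without the libraries of low mt ratio, mt-Co2 had a log2 fold change of 0.039 and Fn1 of -0.057. In that fit only replicate 1 of Maternal_10Cyp remained in batch 1. In batch 1 alone mt-Atp6 had 0.52 and Bcl11b -0.003. In batch 2 alone Igf2bp2 had 0.05, Neurog1 0.094, Nhlh1 0.29 and Sox3 0.18. With 2 surrogate variables Gfap had -0.074, and with the globin ratio Gfap had -0.015 and Nhlh1 0.023. Genes near 1 CPM rest on few counts, and counting error adds to their spread.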

Other observations

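Genes of the cortical hem and hippocampus, the medial edge of the dorsal forebrain, had a median log2 fold change of 0.31 over 17 tested genes with 18 libraries, and 5 were higher at an unadjusted p under 0.05 (29.4%, where 9.52% of all genes were). In the 16 libraries the median was 0.13 and 2 rose (11.8%, where 11.3% of all genes did; 4 without replicate 5 of Both_10Cyp, 1 without replicate 5 of Maternal_10Cyp and 0 with offsets for length and GC content). Rspo2, a secreted amplifier of Wnt signalling, had 7.69 to 13.4 CPM in Both_10Cyp and 3.38 to 8.61 CPM in Maternal_10Cyp, and 0.50 ± 0.16 in the 16 libraries (edgeR adjusted p = 0.03). Dkk3, a secreted protein related to Wnt inhibitors, had 24.4 to 46.4 CPM in Both_10Cyp and 25.7 to 31.3 CPM in Maternal_10Cyp, and 0.40 ± 0.11 in the 16 libraries (edgeR adjusted p = 0.017).

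Of 17 genes of striatal neurons 4 rose in the 16 libraries (2 without replicate 3 of Both_10Cyp), where 11.3% of all genes did, among them Penk, the enkephalin precursor (0.52 ± 0.14), Rgs9 (0.40 ± 0.11) and Foxp1 (0.28 ± 0.083). Of 15 diencephalic genes 0 were called in either fit, and of 20 interferon response genes 1 rose with 16 libraries (5%), Stat2 (0.22 ± 0.077), which was 0 without replicate 1 of Maternal_10Cyp or with the offsets and 2 without replicate 2 of Maternal_10Cyp.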
